A study of Homo sapiens with 30 samples.

Results

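The genes described here encode major histocompatibility complex (MHC) class I molecules and the machinery that loads them with peptide. They are the rows of the deposited count table with the symbols HLA-B, HLA-C, HLA-E, HLA-F, HLA-G, B2M, TAP1, TAP2 and TAPBP, 9 of 54300 symbols, and all 9 passed the filter on low counts that left 21554 symbols for testing. RNA sequencing was done on Jurkat E6-1, a T cell leukaemia line of human origin, in the parental state (WT) and after loss of SLAMF6 isoform 1, a receptor of the SLAM family (KO, written SLAMF6 Δ17-65 in the treatment protocol). Cells were unstimulated (0 h) or had been activated for 6, 12, 24 or 36 h with PMA, a phorbol ester that activates protein kinase C, at 200 ng/ml, together with the calcium ionophore ionomycin at 300 ng/ml. There were 3 libraries in each of the 10 groups, 30 in all. The time points carry no unit in the labels and were read as hours. The doses come from a protocol written for an ELISA of secreted cytokines after 48 h. The series title names overexpression of isoform 3, whereas the design text names a knockout of isoform 1, and the samples were labelled by the latter. How many edited clones the KO libraries represent is not given in the labels, nor whether libraries of a group were separate cultures, so the spread behind each p-value may be technical. Library titles carry the letter A for WT and B for KO up to 24 h and the letter C for both genotypes at 36 h, and what the letters stand for is not stated. If they mark a batch, batch and genotype cannot be told apart up to 24 h, nor can batch and time between 24 and 36 h, while the genotypes at 36 h share a letter.

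A class I molecule consists of a heavy chain, which HLA-B, HLA-C, HLA-E, HLA-F and HLA-G encode, bound to the invariant light chain β2-microglobulin (B2M). Proteasomes cut cytosolic proteins into peptides, the TAP1-TAP2 transporter carries these into the endoplasmic reticulum, and tapasin (TAPBP) holds empty class I molecules beside the transporter until a peptide binds. HLA-B and HLA-C are classical heavy chains that show peptides to CD8+ T cells, HLA-E shows leader peptides of other class I chains to CD94/NKG2 receptors, and HLA-F and HLA-G are further nonclassical chains, HLA-G being known mainly from placental trophoblast. Transcription of much of the family, though not of every member, is driven by NF-κB, by the interferon-induced factor IRF1, and by the coactivator NLRC5. NLRC5 acts through a conserved promoter module that ends in an inverted CCAAT (Y) box.

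Promoter stretches are printed because the genes moved together during activation while falling into different time courses. Only those of HLA-B and HLA-C reach the core of the Y box, ATTGG. That of HLA-G holds no match to any motif searched. A RefSeq promoter table (GRCh38.p14, 250 bases before each start) held 8 of the 9 genes, all but HLA-E. Each stretch is written 5′ to 3′ on the strand of its gene, and capitals mark matches on either strand to the κB-type motif GGGANTCC or to an interferon-type motif, GAAANNGAA or its mirrored spacing GAANNGAAA. The last of these was added after the sequences had been seen.
HLA-B, chr6:31357224-31357364, minus strand: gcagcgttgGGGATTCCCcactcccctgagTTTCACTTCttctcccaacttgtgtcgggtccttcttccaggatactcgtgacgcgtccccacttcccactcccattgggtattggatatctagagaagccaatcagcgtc
HLA-C, chr6:31272137-31272277, minus strand: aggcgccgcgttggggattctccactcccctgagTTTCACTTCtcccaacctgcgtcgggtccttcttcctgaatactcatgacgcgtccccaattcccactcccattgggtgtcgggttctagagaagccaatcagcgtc
HLA-F, chr6:29723258-29723287, plus strand: aattccccatctccccagagtTTCTCTTTC
HLA-G, chr6:29827662-29827691, plus strand: tggggattctctcctccttctcctaacctg
B2M, chr15:44711350-44711411, plus strand: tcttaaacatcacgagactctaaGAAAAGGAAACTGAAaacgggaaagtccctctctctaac
TAP1, chr6:32853815-32853844, minus strand: ggccgctTTCGATTTCGCTTTCccctaaat
TAP2, chr6:32838781-32838810, minus strand: tggctgggGAAGCGAAAGCGAAagctgccc
TAPBP, chr6:33314079-33314105, minus strand: tttggagGAAAGTGAAAGTGAAaggag

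An interferon-type match of either spacing was present in 7 of the 8 genes, against 12.4% of the 35116 promoters in the table. A gene counted if any of its starts held a match (11 promoters for the 8 genes), whereas the shares are per promoter. GAAANNGAA occurred in HLA-F, B2M, TAP1, TAP2 and TAPBP (6.88% of all promoters) and GAANNGAAA in HLA-B, HLA-C and TAP2 (6.56%). In B2M, TAP1, TAP2 and TAPBP 2 matches overlapped in 1 run. The κB-type motif GGGANTCC was found in HLA-B alone of the 8 (3.85% of promoters). It does not match the longer κB form GGGACTTTCC, which was not searched for over all promoters. That form is present in the printed B2M stretch, read on the other strand, and before the second listed start of TAP1. Absence of GGGANTCC is therefore not absence of a κB-type element. The CCAAT core ATTGG was in HLA-B, HLA-C, HLA-F, HLA-G, B2M and TAP1 (32% of promoters), and TGACG, the core of the X2 box, was in HLA-B, HLA-C, B2M and TAP2 (21.2%). The palindromic motif TTCNNNGAA was in TAP1 alone (6.57%), and the AP-1-type motif TGANTCA was in none of the 8 (6.57%). A match is a run of letters and not a measured binding site, and a motif with other letters at the same place is not counted.

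**Figure D1:**
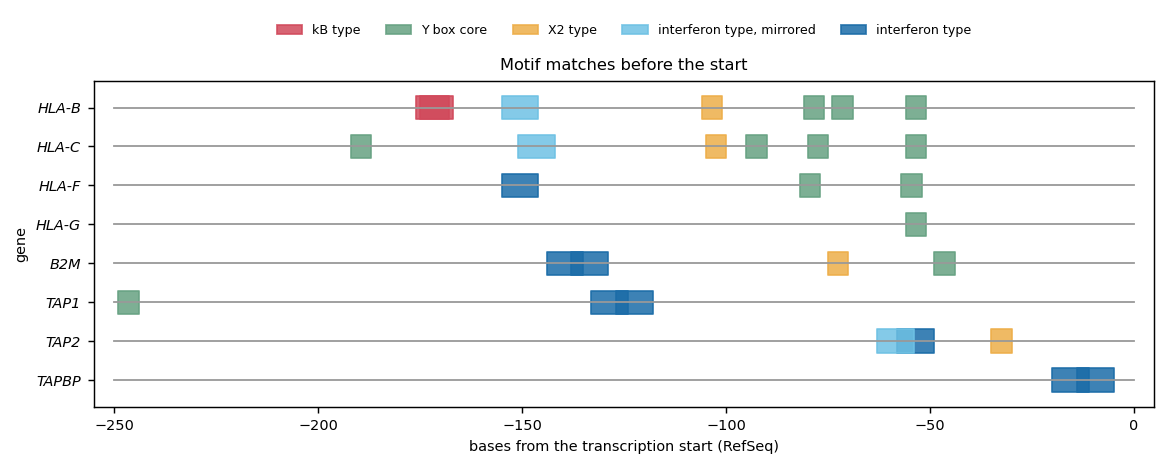
Positions of motif matches on either strand in the 250 bases before the transcription start of 8 genes (x axis, bases from the RefSeq start; y axis, gene; for TAP1 the second and for HLA-G the third listed start). The matches of HLA-B, HLA-C, HLA-F and B2M to interferon-type motifs lie between 155 and 130 bases before the start, and those of TAP2 and TAPBP lie within 63 bases of it.

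In GENCODE 29 on GRCh38, which was matched by symbol and is not the build of the deposited counts, 8 of the genes lie in the MHC on chromosome 6 and B2M lies on chromosome 15 (44711487 to 44718877, plus strand). TAP2 (32821833 to 32838780), TAP1 (32845209 to 32853978) and TAPBP (33299694 to 33314387) are on the minus strand. HLA-C (31268749 to 31272130, minus strand) is overlapped by a long HLA-B model (31269491 to 31357188, minus strand), HLA-F (29722775 to 29738528), HLA-G (29826967 to 29831125) and HLA-E (30489467 to 30494205) are on the plus strand, and TAP1 overlaps PSMB9 and PSMB8-AS1 on the opposite strand. Whether counting used strand is not given in the sources used here, so reads in such overlaps cannot be told apart. Of the stretches of 50 bases in the transcripts of each gene, 32.7% were shared with other genes for TAP2, which overlaps the annotated AL669918.1, and 0 to 6.17% for the other 8. Counts of the HLA genes also depend on how well the alleles of Jurkat align to the reference, which was not tested.

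The libraries held 5.64 to 28.2 M counts (median 20.5 M). WT and KO at 0 h and WT at 36 h each hold 1 library under 9 M, namely replicate 2 in all 3 groups. Counts of SLAMF6 as a whole gene did not fall in KO (19.3 ± 1.5 CPM, TMM-scaled counts per 1e6 counts, against 21.2 ± 3.4 CPM at 0 h, SD, n = 3) and were higher in KO at 24 h (log2 0.64) and 36 h (0.40), so at gene level the loss of isoform 1 could not be checked. All 10 T cell markers were detected, with summed levels of 3365 to 5928 CPM, and their sum was lower in every KO library than in every WT library at each time (3863 to 4036 against 4250.2 to 4352 CPM at 0 h). Within their groups WT 24 h replicate 3, KO 6 h replicate 2, KO 12 h replicate 1 and KO 24 h replicate 3 stood apart most, and no libraries agreed within sampling noise. Of 5 B cell markers only CD79A averaged at least 1 CPM (8.66 to 32.2 CPM), and the sums over 5 monocyte, 5 natural killer and 5 fibroblast markers stayed under 14 CPM. Because each library is bulk RNA, fewer cells of a type and less RNA per cell cannot be told apart.

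Activation raised the whole family. Together the 9 genes took 0.209 to 0.234% of all counts in the WT libraries at 0 h and 0.633 to 0.661% at 36 h, and in KO 0.248 to 0.275% and 0.917 to 0.941%. In WT, 8 of the 9 genes rose by 6 h (11.8% of all tested genes were called higher there) and 9 of 9 at 12 h (14.8%), 24 h (17.3%) and 36 h (20.2%). The median change of the 9 genes was 0.89, 1.27, 2.33 and 2.42 on the log2 scale, beside medians of 0.03, 0.12, 0.03 and 0.01 over all tested genes. In KO, 7 rose at 6 h (14% of all genes), 8 at 12 h (14.1%), and 9 at 24 h (16.1%) and 36 h (18.6%), with medians of 0.87, 1.73, 2.06 and 2.01. All comparisons with 0 h within a genotype share the same 3 libraries of 0 h.

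HLA-B gave 84.3, 90.4 and 88.0 CPM in the WT libraries at 0 h and 245, 231 and 225 CPM at 6 h. At 24 h the values were 793, 908 and 1132 CPM and at 36 h 881, 946 and 976 CPM. Every library of a later time lay above those of 0 h, as for 20.8% of all tested genes at 6 h and 25.5% at 36 h. The fitted change reached 10.8-fold at 24 h (log2 3.43 ± 0.12, SE). HLA-C started higher, at 125, 145 and 138 CPM, and rose less at each time. It was at 197, 189 and 192 CPM at 6 h and at 674, 740 and 774 CPM at 36 h in WT, 5.37-fold over 0 h (log2 2.42 ± 0.12). HLA-F came from 3.61, 4.69 and 5.46 CPM at 0 h to 53.1, 61.1 and 56.4 CPM at 36 h in WT, 12.4-fold (log2 3.63 ± 0.14), the steepest rise of the 9 genes in both genotypes at that time. HLA-G was barely expressed, with 4 to 81 counts per library. Its WT level was 0.552 ± 0.211 CPM at 0 h and 3.31 ± 1.13 CPM at 36 h (SD, n = 3). HLA-C in KO at 6 h was not called (log2 0.27, adjusted p = 0.0612) but was without KO 6 h replicate 2 (0.37, adjusted p 0.0204 to 0.226 over the alternatives). HLA-G was called higher in WT from 12 h on and in KO from 24 h on. Its adjusted p was 0.361 in WT at 6 h, 0.67 in KO at 6 h and 0.0729 in KO at 12 h, where it was called without KO 0 h replicate 3 (log2 1.21). The call in WT at 12 h (log2 1.25) was lost without WT 0 h replicate 1 (log2 0.89) or WT 12 h replicate 1 (1.08), and the adjusted p ran from 0.00962 to 0.136 over the alternatives tried.

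HLA-E had the largest change of the heavy chains at 6 h (log2 2.10 ± 0.10 in WT and 2.92 ± 0.10 in KO). It stood at 82.4, 90.8 and 90.3 CPM in WT at 0 h, level with HLA-B, and at 390, 377 and 360 CPM by 6 h. From 12 h on no step passed the test in WT, with means of 538 ± 69, 563 ± 29 and 526 ± 35 CPM (SD, n = 3) at 12, 24 and 36 h. The light chain B2M was already abundant, at 1740.0, 1776 and 1548 CPM in WT at 0 h, and at 36 h had a smaller fold than any heavy chain in both genotypes. It gave 3468, 3654 and 3510.2 CPM at 12 h, 2.10-fold over 0 h (log2 1.07 ± 0.11), and 3506, 3287 and 3398 CPM at 36 h (2.01-fold). At 24 h WT replicate 3 was high, at 5282 CPM beside 3621 and 3783 CPM.

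The peptide loading genes were highest at 12 h. TAP1, the first subunit of the transporter, went from 77.7, 67.3 and 86.1 CPM in WT at 0 h to 681, 545 and 767 CPM at 12 h, 8.59-fold (log2 3.10 ± 0.12), and back to 253, 268 and 307 CPM at 24 h. TAP2, the second subunit, followed on a smaller scale, from 31.9, 29.1 and 32.1 CPM to 72.6, 68.3 and 84.4 CPM at 12 h and 45.4, 49.9 and 58.1 CPM at 24 h. TAPBP went from 164, 176 and 176 CPM to 361, 331 and 366 CPM at 12 h and 228, 251 and 204 CPM at 24 h. For all 3 genes the WT libraries of 24 h lay below every library of 12 h (17.3% of all tested genes) and above every library of 0 h (21.8%).

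**Figure D2:**
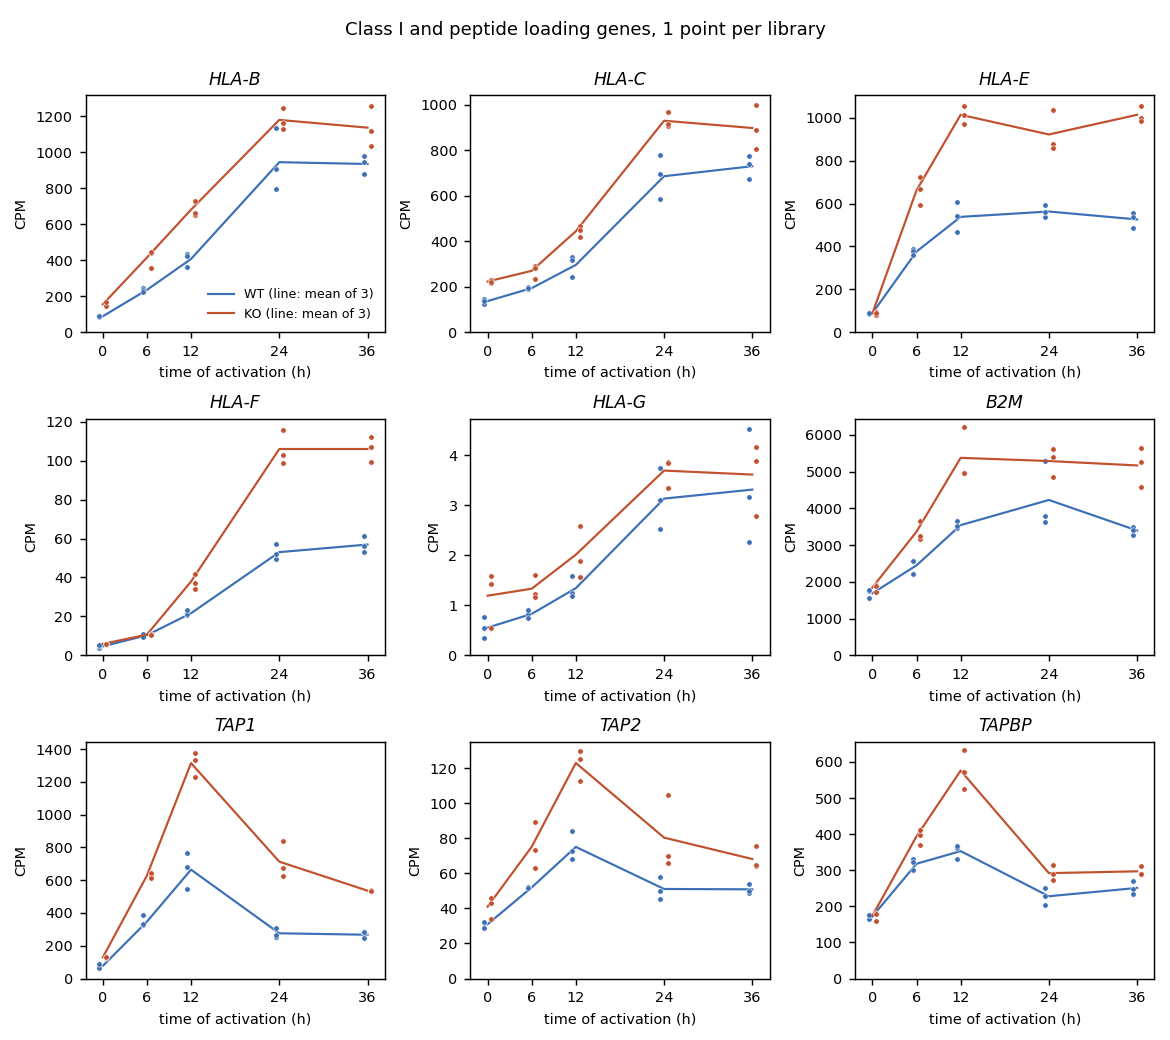
TMM-scaled CPM of each gene (y axis, linear from 0, a separate scale per gene) against time of activation in hours (x axis), with 1 point per library, WT in blue and KO in red, and lines through the means of 3 libraries. HLA-B, HLA-C and HLA-F climb to 24 h, while TAP1, TAP2 and TAPBP are highest at 12 h in both genotypes.

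Tests between consecutive times separated these courses. From 6 to 12 h, 7 genes rose in WT (3.85% of all genes) and 8 in KO (5.08%). From 12 to 24 h the family split: HLA-B, HLA-C, HLA-F and HLA-G rose in WT (4 genes, 7.60% of all genes called higher) while TAP1, TAP2 and TAPBP fell (3 genes, 7.25% called lower). In KO the genes that rose were HLA-B, HLA-C and HLA-F (6.28%) and those that fell were again TAP1, TAP2 and TAPBP (8.20%). TAP1 fell by 1.27 on the log2 scale in WT (SE 0.11) and by 0.88 in KO (SE 0.11), TAPBP by 0.63 and 0.98, and TAP2 by 0.55 and 0.61. HLA-B rose by log2 1.22 ± 0.11 in WT and 0.79 ± 0.11 in KO over the same step. HLA-E and B2M did not pass the test at that step in either genotype (log2 0.07 and 0.25 in WT, −0.14 and −0.02 in KO). From 24 to 36 h edgeR called 0 of 9 genes in WT (2.57% of all genes were called lower). At an unadjusted p under 0.05, 1 gene was lower, B2M with log2 −0.32, and DESeq2 also called 1. In KO, TAP1 alone was called, lower by 0.41 (3.35% of all genes).

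Some of these calls were lost or gained with a library left out, in part with little change in the log2 value. Without WT 12 h replicate 3 or WT 24 h replicate 1 the fall of TAP2 in WT was −0.45 and −0.47 and lost its call (adjusted p 0.00148 to 0.0582 over the alternatives), and its rise from 6 to 12 h in WT (log2 0.53) was lost without WT 12 h replicate 3 (0.42) or any 1 WT 6 h library (0.51 to 0.52, adjusted p 3.87e-05 to 0.102). HLA-G from 12 to 24 h in WT was lost without WT 12 h replicate 2 (1.18) or WT 24 h replicate 2 (1.09), HLA-G in KO (0.87, not called) was called without KO 12 h replicate 1 (1.09), B2M in WT was called without WT 24 h replicate 1 (0.36), and the fall of TAP1 in KO after 24 h was lost without KO 24 h replicate 3 (−0.30) or any 1 KO 36 h library (−0.41 to −0.43).

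**Figure D3:**
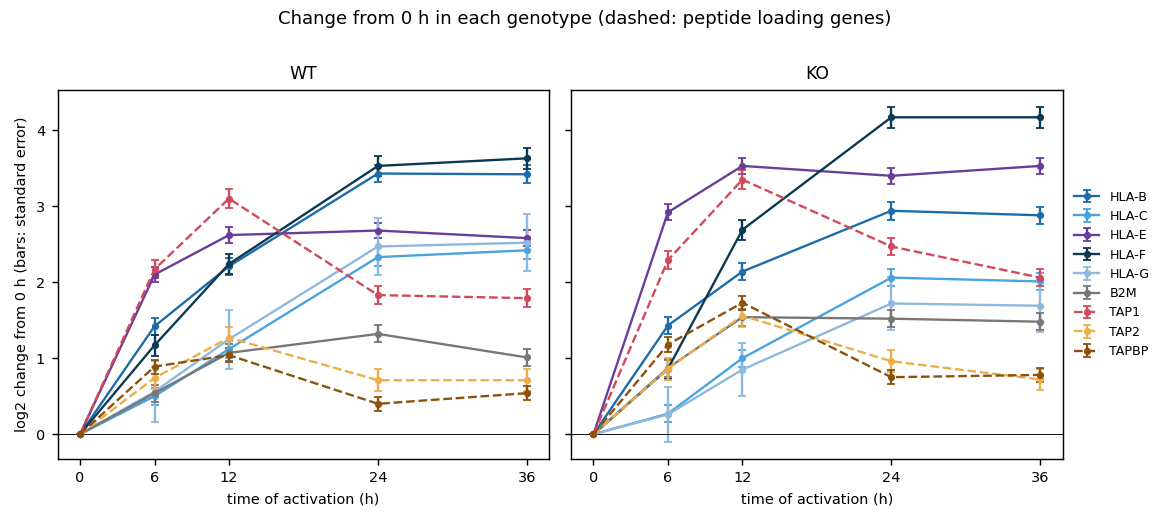
Fitted log2 change from 0 h (y axis, bars are standard errors) against time of activation in hours (x axis) for the 9 genes in WT (left) and KO (right). Solid lines are heavy chains and B2M, dashed lines are TAP1, TAP2 and TAPBP, which turn down after 12 h in both panels.

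The split changed the proportions within the pathway. The ratio of TAP1 to HLA-B counts was 0.881 ± 0.122 in WT at 0 h (SD, n = 3), 1.63 ± 0.15 at 12 h and 0.295 ± 0.024 at 24 h. In KO it was 0.839 ± 0.053, 1.94 ± 0.23 and 0.603 ± 0.068. At 24 and 36 h every KO library had a higher ratio than every WT library. B2M exceeded HLA-B 19.3-fold in counts in WT at 0 h and 3.65-fold at 36 h. Per kilobase of exon, B2M had the highest level in all 10 groups, 278 ± 20 CPM per kb in WT at 0 h and 559 ± 18 at 36 h. Next at 0 h in WT came HLA-C (54.3 CPM per kb), TAPBP (34.0) and then HLA-E (29.5) and HLA-B (28.7), whose libraries overlapped. At 36 h the order in WT after B2M was HLA-B (306 CPM per kb) and HLA-C (291), which overlapped, then HLA-E (177), then TAP1 (55.6) and TAPBP (49.6), which overlapped, then HLA-F (13.1), TAP2 (7.96) and HLA-G (1.88). These levels per length use GENCODE exons and are a scale of abundance between genes, not a change. The exon lengths were 6079 bases for B2M, 6390 for TAP2 and 3051 for HLA-B with its long model. The order of genes therefore depends on the annotated lengths, and other lengths were not tried.

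Across the 30 libraries the log2 levels of HLA-B, HLA-C, HLA-F and HLA-G ran together, with Pearson's r of 0.91 to 0.97 for each pair. TAP1, TAP2 and TAPBP formed a second group, with r of 0.87 to 0.95. Between the groups r was lower, 0.67 for HLA-B with TAP1 and 0.20 for HLA-G with TAPBP. HLA-E lay between them, with r of 0.89 with HLA-B and 0.90 with TAP1. The libraries share the same 10 groups, so these values describe the time courses and carry no test.

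Loss of SLAMF6 isoform 1 went with higher levels of the family. Averaged over the 5 times, all 9 genes were higher in KO (15.3% of all genes were called higher), with a median of log2 0.54, beside −0.01 over all tested genes. The average difference was largest for TAP1 (1.99-fold, log2 0.99 ± 0.05, SE), followed by HLA-E (0.68 ± 0.04), HLA-F (0.62 ± 0.06) and HLA-B (0.60 ± 0.05). It was log2 0.54 for TAP2, 0.53 for HLA-G, 0.50 for HLA-C, 0.42 for B2M and 0.33 for TAPBP. In the same samples the summed T cell markers were lower in KO, and the part this plays in the result was not tested.

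Before activation 3 of the 9 genes were higher in KO (2.96% of all genes). HLA-B measured 152, 144 and 165 CPM in the KO libraries at 0 h, above the WT values of 84.3 to 90.4 CPM (1.76-fold, log2 0.82 ± 0.11, adjusted p = 5.61e-06). HLA-C measured 215, 229 and 222 CPM in KO and 125 to 145 CPM in WT (log2 0.71 ± 0.11). TAP1 measured 127, 129 and 130 CPM in KO and 67.3 to 86.1 CPM in WT (log2 0.73 ± 0.11). The libraries of the genotypes did not overlap for any of these 3 genes, nor for HLA-F and TAP2, which were not called. Every KO library lay above every WT library for 12.4% of all tested genes at 0 h, and below for 12.8%. The libraries overlapped for HLA-E, which was at 91.2, 79.8 and 90.9 CPM in KO (log2 −0.00 ± 0.10), and for B2M (0.13 ± 0.11) and TAPBP (0.02 ± 0.09). HLA-F at 0 h (log2 0.36, not called) was called only without WT 0 h replicate 3 (0.58, adjusted p 0.0384 to 0.673 over the alternatives).

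After activation 7 genes were higher in KO at 6 h (5.21% of all genes), 8 at 12 h (6.07%), 6 at 24 h (4.97%) and 5 at 36 h (6.95%). At 12 h, the time with the most calls, the gene not called was HLA-G (log2 0.59 ± 0.34). TAP1 measured 1231, 1378 and 1333 CPM in KO at 12 h, above every WT library (log2 0.98 ± 0.11, adjusted p = 1.19e-07), and at 24 h 673, 628 and 839 CPM against 253 to 307 CPM in WT (2.59-fold, log2 1.37 ± 0.11). HLA-E measured 1057, 1016 and 973 CPM in KO at 12 h, 1.89-fold over WT (log2 0.92 ± 0.10). At 36 h it still measured 1000.1, 987 and 1056 CPM in KO, where WT had 487 to 555 CPM (log2 0.95 ± 0.10). HLA-F was level between genotypes at 6 h, at 10.9, 10.7 and 10.3 CPM in KO and 9.26 to 11.1 CPM in WT, and then parted. At 24 h it was at 98.7, 103 and 116 CPM in KO against 49.5 to 57.3 CPM in WT (2.00-fold, log2 1.00 ± 0.11).

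B2M measured 4958, 4961 and 6212 CPM in KO at 12 h (1.52-fold over WT, log2 0.60 ± 0.11) and 5259, 4593 and 5657 CPM at 36 h (log2 0.61 ± 0.11), and no library overlapped between genotypes at either time. Every KO library lay above every WT library for 15% of all tested genes at 12 h and 16.4% at 36 h. TAPBP measured 525, 632 and 571 CPM in KO at 12 h, above the WT range of 331 to 366 CPM (log2 0.71 ± 0.09), but its difference at 36 h was 0.25 ± 0.09 and not called. TAP2 measured 130, 113 and 125 CPM in KO at 12 h (log2 0.71 ± 0.14). The difference in HLA-B was 0.82 at 6 h, 0.74 at 12 h, 0.32 at 24 h (adjusted p = 0.0513) and 0.28 at 36 h (adjusted p = 0.0763), and the KO libraries at 36 h, with 1115, 1257 and 1036 CPM, all lay above the WT libraries. HLA-C was called at 6, 12 and 24 h (log2 0.48, 0.59 and 0.44) and not at 36 h (0.30, adjusted p = 0.0641).

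Some calls at 24 h changed with a library left out or with the method. Without WT 24 h replicate 3, HLA-B (log2 0.49) and B2M (0.54) were also called, with adjusted p from 0.00222 to 0.299 and from 0.00029 to 0.314 over the alternatives. With all libraries kept, HLA-B was called by DESeq2's Wald test (0.30) and B2M with no filter on low counts (0.34). Calls were lost for TAP2 (0.43) and TAPBP (0.33) without KO 24 h replicate 3 and for HLA-C (0.34) without WT 24 h replicate 1, and in a fit of only the 6 libraries compared, 3 genes were called at 24 h and 8 at 36 h. At 36 h TAP2 (log2 0.42) lost its call without any 1 of the 6 libraries (0.34 to 0.47, adjusted p 0.00758 to 0.184), and at 6 h the same held for TAPBP (0.31) when WT 6 h replicate 2, WT 6 h replicate 3, KO 6 h replicate 1 or KO 6 h replicate 2 was left out (0.27 to 0.32, adjusted p 0.0104 to 0.137), for TAP2 (0.53) without KO 6 h replicate 3 (0.39) and for B2M (0.46) without WT 6 h replicate 3 (0.39).

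**Figure D4:**
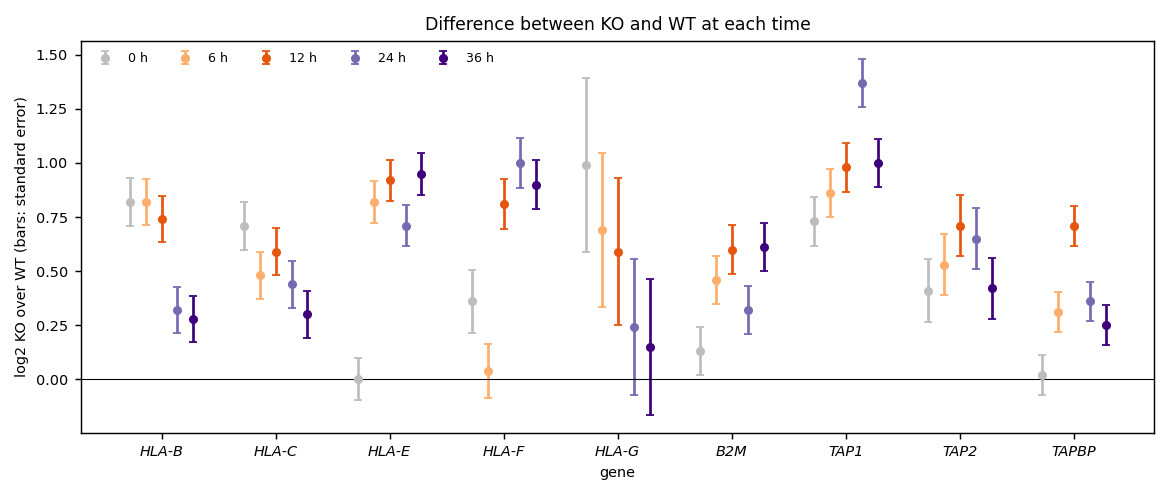
Fitted log2 difference of KO over WT (y axis, bars are standard errors) for each gene (x axis) at the 5 times, 0 to 36 h. HLA-E and TAPBP start near 0 and HLA-B, HLA-C and TAP1 start between 0.71 and 0.82, and all differences but that of HLA-E at 0 h are above 0.

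Whether the response to activation itself differed was tested as an interaction, the change from 0 h in KO less that in WT. Jointly over the 4 later times, 4 of the 9 genes were called, HLA-B, HLA-E, HLA-F and TAPBP, where 9.84% of all genes were called. HLA-E responded more in KO at every time, by log2 0.82 ± 0.14 at 6 h (1.64% of all genes called higher), 0.92 ± 0.14 at 12 h (1.42%), 0.72 ± 0.14 at 24 h (1.84%) and 0.95 ± 0.14 at 36 h (4.71%). TAPBP responded more at 12 h (0.69 ± 0.13), and HLA-F (0.64 ± 0.19) and TAP1 (0.64 ± 0.16) at 24 h. HLA-B went the other way at 36 h, with a change that was smaller in KO by log2 0.53 (SE 0.15, 4.62% of all genes called lower), from a higher level at 0 h. For HLA-C, HLA-G, B2M, TAP1 and TAP2 the joint test was not passed (adjusted p of 0.334, 0.67, 0.131, 0.0505 and 0.694).

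Calls of HLA-E at each time and of TAPBP at 12 h held in every alternative (highest adjusted p 0.00878 and 0.00988). So did the joint calls of HLA-B, HLA-E, HLA-F and TAPBP (highest adjusted p 0.0409, for HLA-B). Other calls changed with a library left out or with the method, in part with little change in the log2 value. HLA-F at 24 h lost its call without any 1 of 9 of the 12 libraries that enter it (WT 0 h replicates 2 and 3, WT 24 h replicates 1 and 2, all 3 of KO 0 h, KO 24 h replicates 2 and 3), with log2 0.43 to 0.69 (adjusted p 0.0107 to 0.297 over the alternatives), and TAP1 at 24 h without WT 0 h replicate 3 (0.55), WT 24 h replicate 1 (0.58) or 2 (0.62) or KO 24 h replicate 3 (0.53). HLA-B at 36 h lost it without any 1 of 7 of the 12 (WT 0 h replicate 1, WT 36 h replicates 2 and 3, KO 0 h replicates 1 and 3, KO 36 h replicates 1 and 3), with log2 −0.45 to −0.53 (adjusted p 0.0128 to 0.0971). The number of genes called, 3 at 24 h and 2 at 36 h, ran from 1 to 3 at both times with a library left out, and DESeq2 called 4 at each. In the joint test TAP1 was called without any 1 of WT 0 h replicate 2, WT 12 h replicates 2 and 3, WT 24 h replicate 3, KO 6 h replicate 2, KO 12 h replicate 1 and KO 24 h replicate 2 (adjusted p 0.0108 to 0.169 over the alternatives), and also with DESeq2 size factors (0.0343), with no filter on low counts (0.0204) and by DESeq2's likelihood ratio test (0.0108). B2M was called without WT 24 h replicate 3 (0.0255) and with no filter (0.0222), within a range of 0.0222 to 0.232.

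IRF1 and NLRC5, regulators of class I transcription, had their highest means at 12 h. In WT the 12 h libraries overlapped those of 6 h (IRF1 317 to 328 CPM, NLRC5 207 to 216 CPM at 6 h). Of 24 listed regulators 14 rose and 2 fell at 6 h in WT (11.8% of all genes higher and 10.5% lower), and 13 rose and 3 fell at 12 h (14.8% and 15.6%), with a median of log2 1.62. From 6 to 12 h 3 of the 24 rose and 5 fell in WT (3.85% and 5.64% of all genes). In KO 3 rose and 4 fell over that step (5.08% and 5.75%). IRF1, a factor that binds interferon-type elements, went from 76.8, 89.2 and 83.2 CPM in WT at 0 h to 378, 296 and 487 CPM at 12 h. NLRC5, the class I coactivator, went from 39.7, 34.7 and 46.3 CPM to 237, 213 and 291 CPM. From 12 to 24 h both fell, in WT by 1.76 and 0.93 on the log2 scale and in KO by 1.49 and 1.04. Between genotypes IRF1 and NLRC5 were not called at 0 h (log2 0.22 and 0.05), and at 12 h they were higher in KO by log2 0.80 and 0.83. Over the list 4 regulators were higher in KO at 0 h, 9 at 6 h, 9 at 12 h, 6 at 24 h and 4 at 36 h (2.96%, 5.21%, 6.07%, 4.97% and 6.95% of all genes), and 1 was lower at each of 12, 24 and 36 h (5.52%, 4.76% and 6.52%).

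Interferon γ, a cytokine of activated T cells that induces class I genes, was at 0 to 0.0752 CPM at 0 h in both genotypes (1 count over the 3 WT libraries and 2 over the 3 KO libraries). IFNG gave 7.41, 4.90 and 8.10 CPM in WT at 6 h and 50.6, 19.2 and 49.8 CPM in KO (log2 2.55 ± 0.45 between genotypes). KO 6 h replicate 2 was low beside the other 2, and still above every WT library. At 36 h the values were 4.35, 6.03 and 4.85 CPM in WT and 19.2, 16.8 and 17.7 CPM in KO. Of 12 listed interferon ligands, receptors and kinases 9 passed the filter on low counts, of which 5 rose and none was called lower in WT at 6 h (11.8% of all genes higher and 10.5% lower). In KO 4 rose and 1 fell at 6 h (14% and 13.2%). Between genotypes 3 were higher and 1 lower in KO at 6 h (5.21% and 4.76% of all genes), and 2 were higher and 1 lower at 36 h (6.95% and 6.52%). The lower one was IFNAR2, a subunit of the type I interferon receptor and the most abundant of the list. It gave 111, 105 and 109 CPM in WT and 85.5, 75.2 and 76.0 CPM in KO at 6 h, and 204 ± 10 CPM in WT and 132 ± 3 CPM in KO at 36 h (SD, n = 3). IFNAR2 was lower in KO by log2 −0.46, −0.28, −0.33 and −0.63 at 6, 12, 24 and 36 h and did not pass the test at 0 h (0.11).

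**Figure D5:**
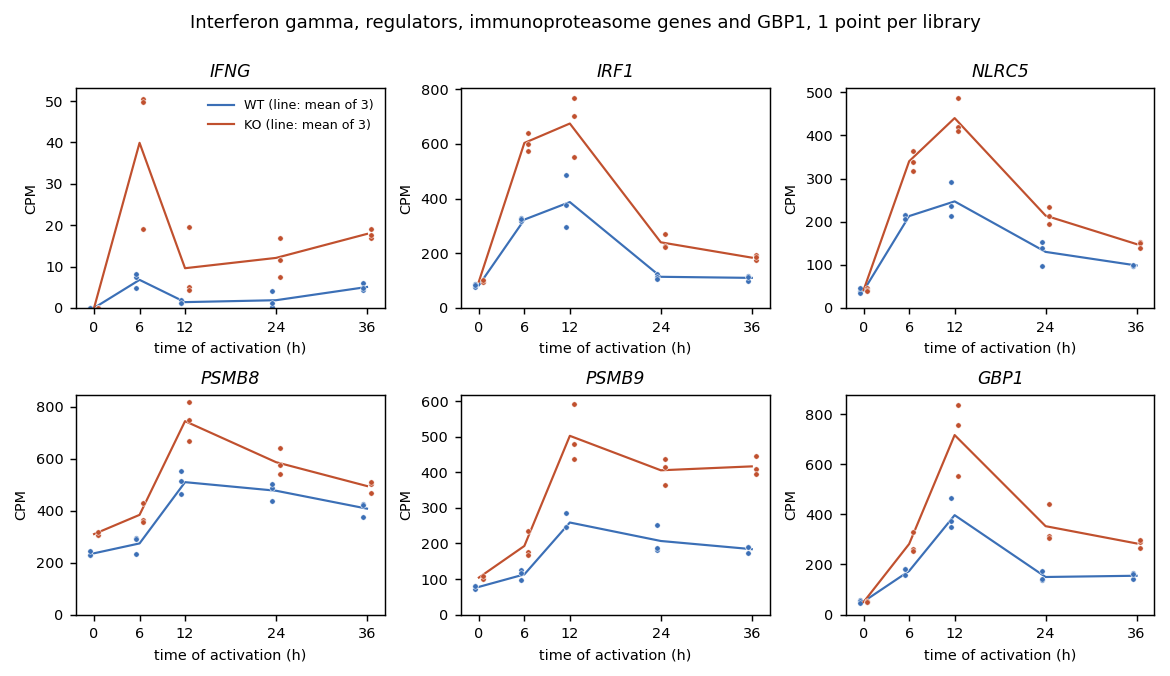
TMM-scaled CPM (y axis, linear from 0, a separate scale per gene) of IFNG, IRF1, NLRC5, PSMB8, PSMB9 and GBP1 against time of activation in hours (x axis), 1 point per library, WT in blue and KO in red, lines through the means of 3. The means of IRF1, NLRC5, PSMB8, PSMB9 and GBP1 are highest at 12 h in both genotypes, and that of IFNG is highest at 6 h.

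Of 15 genes for peptide generation and trimming, the step before loading, 7 rose and 2 fell at 12 h in WT (14.8% of all genes called higher and 15.6% lower), and 8 rose and 1 fell in KO (14.1% and 13.7%). Their medians were log2 0.24 and 0.36, smaller than those of the 9 class I and loading genes. Averaged over the times 9 of the 15 were higher and 2 lower in KO than in WT (15.3% each way over all genes). PSMB9, a catalytic subunit of the immunoproteasome that lies head to head with TAP1, gave 81.2, 72.0 and 80.3 CPM in WT at 0 h and 245, 245 and 286 CPM at 12 h. Unlike TAP1 it did not pass the test for a fall from 12 to 24 h (log2 −0.32 in WT and −0.31 in KO), a contrast between the genes that was not itself tested. In KO it was higher from 6 h on (log2 0.78, 0.96, 0.97 and 1.18 at 6, 12, 24 and 36 h). PSMB8, another immunoproteasome subunit, rose 2.16-fold in WT and 2.40-fold in KO at 12 h. The proteasome activator PSME1 was not called in WT at 12 h (log2 0.16) and rose in KO (0.62). The constitutive subunit PSMB7 was at 430 ± 42 CPM in WT at 0 h and 508 ± 17 CPM at 12 h (SD, n = 3) and was not called (log2 0.24).

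Of 10 listed folding partners in the endoplasmic reticulum 7 rose and 1 fell at 6 h in WT (11.8% of all genes higher and 10.5% lower), and 1 rose and 4 fell at 36 h (20.2% and 19%). In KO 5 rose and 2 fell at 6 h (14% and 13.2%), 6 rose and 1 fell at 12 h (14.1% and 13.7%), and 4 rose and 1 fell at 36 h (18.6% and 18%). The change from 0 h to 36 h itself was larger in KO for 5 of the 10 and smaller for 1 (4.71% and 4.62% of all genes). The chaperone HSPA5 gave 6759.8, 7023 and 6786 CPM in WT at 6 h, 3.05-fold over 0 h, and 1014, 1002 and 975 CPM at 12 h, where it was below 0 h in WT (log2 −1.17) and above it in KO (log2 1.01). Against WT, 4 of the 10 were lower in KO at 0 h (3.11% of all genes) and 5 at 6 h (4.76%), with HSPA5 at 725, 603 and 699 CPM in KO against 2089 to 2332 CPM in WT at 0 h (log2 −1.73 ± 0.11), where HLA-B, HLA-C and TAP1 were higher in KO. At 36 h 4 of the 10 were higher in KO (6.95% of all genes) and none was called lower.

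Other interferon-stimulated genes, a list of 28, rose widely. In WT 14 rose at 6 h, 24 at 12 h, 27 at 24 h and 28 at 36 h (11.8%, 14.8%, 17.3% and 20.2% of all genes), and in KO 15, 23, 23 and 26 (14%, 14.1%, 16.1% and 18.6%). At 6 h 3 fell in KO (13.2% of all genes). In KO 4 were higher than in WT at 0 h, 13 at 6 h, 13 at 12 h, 14 at 24 h and 10 at 36 h (2.96%, 5.21%, 6.07%, 4.97% and 6.95% of all genes), while 2 were lower at 12 h, 1 at 24 h and 2 at 36 h (5.52%, 4.76% and 6.52%). GBP1, an interferon-induced GTPase, was at 397 ± 60 CPM in WT and 717 ± 147 CPM in KO at 12 h (SD, n = 3). UBE2L6, the conjugating enzyme for ISG15, was at 513 ± 37 and 831 ± 102 CPM. From 12 to 24 h 9 of the 28 fell and 4 rose in WT (7.25% and 7.60% of all genes). In KO 11 fell and 4 rose (8.20% and 6.28%). Both directions seen in the class I family over this step were present in this list.

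Of 11 tested class I-like genes 2 rose and 2 fell in WT at 12 h, shares near those of all genes (14.8% higher and 15.6% lower). Among them was CD1D, a lipid-presenting molecule, which fell from 99.4 ± 3.4 to 32.5 ± 1.9 CPM (SD, n = 3). Of 11 listed genes of class II presentation 8 passed the filter, and HLA-DOA, the most abundant, averaged 6.47 CPM over all libraries. In WT 3 of the 8 rose at 12 h and 4 at 36 h (14.8% and 20.2% of all genes), and none was called lower. Averaged over the times 6 of the 8 were lower in KO and none was called higher (15.3% of all genes each way), whereas the 9 class I and loading genes were higher. Among the 6 was HLA-DQB1 (log2 −1.77 ± 0.11), which was at 11.5 ± 0.9 CPM in WT and 3.64 ± 0.99 CPM in KO at 36 h. Of 14 receptors for class I or its relatives 7 passed the filter, and 3 rose and 1 fell in WT at 12 h (14.8% and 15.6% of all genes). Against WT, 1 was higher and 2 were lower in KO at 12 h (6.07% and 5.52%), and 3 were higher at 36 h (6.95%). KLRK1, which encodes NKG2D, was highest among them, at 81.6, 67.6 and 93.8 CPM in KO and 18, 12.9 and 11.9 CPM in WT at 36 h (log2 2.50 ± 0.30).

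Among 8984 genes with a mean of at least 10 CPM, the 8 whose log2 levels were most like the mean of the 9 genes over the 30 libraries were JAK3 (Pearson's r 0.974), APOBEC3G (0.964), STAT2 (0.964), CACNA2D4 (0.961), APOBEC3F (0.960), APOBEC3C (0.952), CFLAR (0.952) and TNFSF8 (0.950). JAK3, the kinase of the common γ chain receptors, went from 33.5 ± 0.8 CPM in WT at 0 h to 144 ± 5 CPM at 36 h and from 43.1 ± 5.1 to 169 ± 3 CPM in KO (SD, n = 3). APOBEC3G, an antiviral cytidine deaminase, went from 6.72 ± 0.27 to 196 ± 20 CPM in WT and from 9.47 ± 1.67 to 459 ± 51 CPM in KO. These genes were picked for their likeness out of all candidates, so the values of r are a description.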

How the data were processed

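RNA sequencing libraries of 10 groups of 3 were analysed from the authors' deposited table of estimated counts, with 1 row per symbol, in which 195 symbols hold values that are not whole and none of the 9 genes does. Such values were rounded to whole counts. Adapter trimming with cutadapt, alignment with STAR and use of DESeq2 are named, per the submitters' processing notes, beside GRCh37 and hg19 as builds, without version numbers. The sources used here do not name the counting tool, annotation or strand setting. Library sizes were 5.64 to 28.2 M.

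One edgeR 4.0.16 quasi-likelihood fit (R 4.3.3) of all 30 libraries, with a mean per group, TMM scaling and filterByExpr with a minimum count of 10, gave log2 differences with standard errors. Benjamini-Hochberg adjustment ran over all 21554 tested symbols, and an adjusted p under 0.05 was called. All adjusted p-values in the text come from this fit unless DESeq2 is named. CPM were TMM-scaled. The scripts were tested on simulated data. Tried alternatives were DESeq2 1.42.0 (its size factors and its tests), no filter on low counts, only the libraries compared, a replicate block up to 24 h, and leaving out each library.

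Besides the 9 genes, the text names the 3 genes of highest mean in each pathway list, further chosen genes (NLRC5, IRF1, PSMB8, PSMB9, IFNG and SLAMF6) and the 8 genes most alike. The genes, lists and rules were chosen with earlier results of these data known, and not all genes the rule allows are printed, 1 of them being not reported here. The mirrored interferon-type motif was added after the promoter sequences had been seen.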

Additional observations from a re-analysis of the deposited data

Results flagged for a closer look

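In a joint test over the 4 later times, the change from 0 h differed between KO and WT for 4 of the 9 genes. The share called over all genes was 9.84%. The test was edgeR's quasi-likelihood test with Benjamini-Hochberg adjustment over all genes. The adjusted p was 3.42e-05 for HLA-E, 0.000604 for HLA-F, 0.00644 for TAPBP and 0.012 for HLA-B. At single times HLA-E differed by log2 0.82 at 6 h, 0.92 at 12 h, 0.72 at 24 h and 0.95 at 36 h, all with the larger change in KO. TAPBP differed by 0.69 at 12 h, and at 24 h HLA-F differed by 0.64 and TAP1 by 0.64. HLA-B differed by −0.53 at 36 h, the smaller change being in KO. The calls of HLA-F and TAP1 at 24 h and of HLA-B at 36 h were each lost with some libraries left out. That of HLA-F was also lost with no filter on low counts. The interactions share the same 6 libraries of 0 h.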

How the results depend on the processing

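Of 2290 alternative values for single genes 2183 kept direction and side of the threshold, 57 lost a call, 30 gained one and 20 changed sign, none of the last from a called value. For the step from 24 to 36 h and the interactions at single times, only genes called in the main fit entered these values. Calls gained there by other genes are therefore not among the 30. In a fit of only the 6 libraries compared, 3 genes in place of 6 were called for KO against WT at 24 h and 8 in place of 5 at 36 h. From 24 to 36 h in WT, 1 gene in place of 0 was called with no filter and 1 with DESeq2, and 0 to 1 with a library left out, as in KO. For the interaction at 24 h 1 to 3 genes were called with a library left out, and at 36 h 1 to 3, or 4 with the DESeq2 Wald test. Signs changed for HLA-E between genotypes at 0 h (0.004 with no filter, −0.057 to 0.059 with a library left out), TAPBP between genotypes at 0 h (−0.021 with DESeq2 size factors, −0.022 with its Wald test, −0.041 to 0.049 with a library left out) and B2M from 12 to 24 h in KO (0.003 with size factors and with the Wald test, 0.020 with no filter, 0.001 in 6 libraries, −0.081 to 0.115 with a library left out). With a library left out they also changed for HLA-G in KO at 6 h (−0.151 to 0.624), HLA-F between genotypes at 6 h (−0.027 to 0.099), HLA-G between genotypes at 36 h (−0.070 to 0.409) and HLA-E from 12 to 24 h in WT (−0.024 to 0.169). The median of all genes in WT at 12 h was 0.116 with TMM and 0.154 with size factors. HLA-G, with 4 to 81 counts per library, is limited by depth. The cause of these changes was not tested.

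Same-numbered libraries were not taken as pairs, since 5 of 12 pairs had a correlation over 0.1 (−0.07 to 0.306), although 9 of 12 correlated best with their own number. With the replicate block 1756 genes in place of 1309 were called between genotypes at 0 h, 2542 in place of 2148 at 6 h, 2629 in place of 2497 at 12 h and 2473 in place of 2097 at 24 h. At 24 h HLA-B (0.320) and B2M (0.327) were called with the block, and TAPBP at 0 h was −0.031. At 36 h the genotypes share no numbers.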
